A study of Mus musculus with 412 samples.

Results

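The immediate early genes Fos, Fosb, Jun, Junb, Egr1, Ier2, Arc, Npas4, Nr4a1 and Dusp1 were followed in single sensory neurons that innervate the mouse colon. These 10 genes were taken by symbol from the 45513 genes of the deposited expression table. The rule names them and applies no measured value, but they were chosen with earlier results of these data known. The neurons came from the dorsal root ganglia (DRG) of C57BL/6J mice. They had been labelled by injecting the retrograde tracer Fast Blue into the colon wall, and were picked with a glass pipette from dissociated primary cultures made some days later. The table held 325 of the 399 neurons that the labels list, 167 of thoracolumbar (TL) origin and 158 of lumbosacral (LS) origin, spread over 6 library plates, of which plate 1 held 5 TL neurons and plates 2 to 6 held both segments. The other 74 neurons and 13 bath controls were not analysed here. All mice were healthy and untreated apart from the tracing. No undissociated tissue was measured, so levels in the intact ganglion cannot be told apart from levels after surgery, dissociation and picking. Neither the labels nor the table name the animal of a neuron. Neurons of a segment were therefore cells of 1 sample and not replicates, no p-values were computed, and differences were read within each plate.

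Immediate early genes are transcribed within minutes of a stimulus such as depolarisation, a growth factor or injury, from transcription factors that the cell already holds, without the need for new protein. Signals through cyclic AMP and calcium act on CREB at cyclic AMP response elements, and signals through the MAP kinases act on SRF and its partners at CArG boxes. The products are mostly transcription factors that start a later wave of genes, beside feedback phosphatases and synaptic effectors. In sensory ganglia and spinal cord, Fos is widely used as a marker of recent neuronal activity, and Jun is known to follow axon injury.

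The level given below is the linear value behind the deposited log2 value, rescaled so that each neuron summed to 1000000. Levels were per transcript length and so can be compared between genes as far as those lengths hold. The length behind Fosb, 7502 bases, was longer than its annotated gene, which lowers its level beside the others. A gene was counted as expressed at a level of 10 or more. Whole reads could be recovered from the values, and each neuron held between 478270 and 14102313 of them, with a median of 3387584. At the median depth a level of 10 stood for 28.6 reads of Fos, 91.3 reads of Fosb and 18.5 reads of Ier2, the shortest of the 10 genes. All 10 sensory neuron markers, among them Tubb3, Snap25 and Scn9a, were expressed in at least 10% of neurons, at a median summed level of 14945. Markers of satellite glia, the cells that wrap each sensory neuron, were also widely present. The summed level of 10 such markers had a median of 2019 and ranged from 6.75 to 99432, and Apoe made up 56.3% of the sum in the median neuron. Apoe was expressed in 75.1% of neurons and Fabp7 in 66.5%, while the defining markers Kcnj10 and Sox10 had a median of 0. S100b, which is also a gene of large myelinated sensory neurons, had medians of 1327 (TL) and 1311 (LS) in neurons with Piezo2 and without Gfra3, against 49.0 (TL) and 10.1 (LS) in neurons with Gfra3 and without Piezo2. Summed markers of endothelial cells, macrophages and fibroblasts had medians of 44.5, 34.0 and 12.5, and 4 of 6, 7 of 8 and 5 of 6 of their genes had a median of 0.

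Promoter sequences were at hand for 7 of the 10 genes (RefSeq, GRCm38.p6), as windows of the 250 bases before each annotated start. The motif TGACG, the short form of a cyclic AMP response element, was found on either strand in 6 of these 7 windows and in 17.8% of all 32851 promoter windows. The window of Npas4, counted among the 6, lay wholly within annotated exon of Npas4 (250 of 250 bases). The full element TGACGTCA, which counts as TGACG on both strands too, was found in that of Dusp1 and in 1.55% of all windows. The letters GCGNGGGCG, which EGR proteins bind, were found in the windows of Fosb and Nr4a1 and in 4.7% of all windows. Neither the AP-1 motif TGANTCA, present in 6.75% of all windows, nor a CArG box, present in 1.47%, was found in any of the 7. Sites outside these 250 bases, inexact matches and the promoters of Egr1, Ier2 and Arc were not searched, so such sites may be present there. Stretches without an annotated exon are shown for 4 genes that the results turn on: Fos as the most abundant, Jun as the window with no TGACG, Nr4a1 as the gene that differed between segments, and Dusp1 as the window with the full element. Capitals mark TGACG, its complement CGTCA or the full element, each sequence running 5′ to 3′ on the strand of its gene. The stretches lay at chr12:85473640-85473889 (plus strand) for Fos, chr4:95052223-95052472 (minus strand) for Jun, chr15:101266596-101266845 (plus strand) for Nr4a1 and chr17:26508520-26508722 (minus strand) for Dusp1.
Fos: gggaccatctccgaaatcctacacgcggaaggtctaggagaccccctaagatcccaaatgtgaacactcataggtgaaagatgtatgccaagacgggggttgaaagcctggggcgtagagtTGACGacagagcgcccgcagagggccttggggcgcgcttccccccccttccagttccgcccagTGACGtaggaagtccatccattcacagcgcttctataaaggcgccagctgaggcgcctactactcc
Jun: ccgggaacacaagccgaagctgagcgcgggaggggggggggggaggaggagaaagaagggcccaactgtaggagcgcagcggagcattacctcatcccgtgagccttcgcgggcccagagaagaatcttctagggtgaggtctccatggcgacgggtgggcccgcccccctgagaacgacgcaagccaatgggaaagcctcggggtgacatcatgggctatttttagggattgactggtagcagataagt
Nr4a1: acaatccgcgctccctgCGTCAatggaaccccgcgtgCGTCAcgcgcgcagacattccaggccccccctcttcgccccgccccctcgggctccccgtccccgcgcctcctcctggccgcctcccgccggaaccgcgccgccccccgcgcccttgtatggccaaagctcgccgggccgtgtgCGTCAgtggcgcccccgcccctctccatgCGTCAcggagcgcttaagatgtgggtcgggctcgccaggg
Dusp1: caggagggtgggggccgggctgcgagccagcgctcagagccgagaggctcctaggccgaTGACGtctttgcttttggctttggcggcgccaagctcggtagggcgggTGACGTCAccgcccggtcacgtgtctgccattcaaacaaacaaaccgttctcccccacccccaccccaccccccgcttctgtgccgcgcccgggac
In the Fos window, TGACG began 129 and 66 bases before the start, and in that of Nr4a1 its complement was found at 4 places, 1 of them beginning 40 bases before the start. These matches describe letters in a window, and no binding was measured.

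Fos, Fosb, Jun and Junb encode the subunits of AP-1, a transcription factor made of a FOS and a JUN protein. Fos (ENSMUSG00000021250, chromosome 12) had the highest level of the 10 genes. Its median was 409, with an interquartile range of 187 to 736 and a full range of 0 to 11508, and 322 of 325 neurons expressed it (99.1%, exact binomial 95% interval 97.3 to 99.8%). Its median lay above that of 97.1% of the 10283 genes tested, that is, genes expressed in at least 10% of neurons. Intervals of this kind cover counting of neurons alone.

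Jun (ENSMUSG00000052684, chromosome 4) and Junb (ENSMUSG00000052837, chromosome 8) followed at about the same level as each other. Jun had a median of 175 with an interquartile range of 104 to 251 and was expressed in 98.2% of neurons. Junb had a median of 147 with an interquartile range of 87.7 to 248 and was expressed in 97.8%. Fosb (ENSMUSG00000003545, chromosome 7), the second FOS member, was far lower and more uneven, with a median of 20.4, an interquartile range of 9.19 to 46.7 and a highest value of 857, and 72.9% of neurons expressed it. Jun had the lowest ratio of upper to lower quartile among the 8 genes with a lower quartile above 0, at 2.41 against 3.94 for Fos and 5.08 for Fosb. Smart-seq2 libraries do not mark strand, so reads of Jun and its antisense neighbour Junos, of Junb and the overlapping Prdx2, and of Dusp1 and the overlapping Ergic1 and Gm8225 may be mixed.

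The other transcription factors spanned a wide range. Egr1 (ENSMUSG00000038418, chromosome 18), a zinc finger protein used as an activity marker, had a median of 60.8 with an interquartile range of 27.3 to 115, and 90.2% of neurons expressed it. Nr4a1 (ENSMUSG00000023034, chromosome 15), an orphan nuclear receptor, had a median of 33.7, an interquartile range of 6.34 to 111 and a highest value of 6503. Its quartile ratio of 17.5 was the highest of those 8 genes, while for Arc and Npas4, with a lower quartile of 0, no ratio could be formed. Nr4a1 was expressed in 229 neurons (70.5%) and had no read in 52. Npas4 (ENSMUSG00000045903, chromosome 19), a factor that central neurons make after calcium entry, was nearly absent. It had no read in 279 neurons (85.8%), its highest level was 14.6, and 5 neurons (1.54%, interval 0.501 to 3.55%) expressed it, although 1 read at the median depth was worth a level of only 0.251.

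The remaining members act outside transcription or have less well-defined roles. Dusp1 (ENSMUSG00000024190, chromosome 17), the phosphatase that shuts off MAP kinases, had a median of 87.2 with an interquartile range of 50.6 to 159 and was expressed in 96.9% of neurons. Ier2 (ENSMUSG00000053560, chromosome 8), a small nuclear early response protein, had a median of 29.7, and 78.5% of neurons expressed it. Arc (ENSMUSG00000022602, chromosome 15), the effector that controls AMPA receptors at central synapses, had a median of 8.76. It was split between 111 neurons without a read and 153 neurons at 10 or more (47.1%), with a highest value of 749. In order of median the genes were Fos, Jun, Junb, Dusp1, Egr1, Nr4a1, Ier2, Fosb, Arc and Npas4, and the interquartile ranges of every adjacent pair overlapped or met at 0. The place of Fosb in this order depends on the length behind its values.

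**Figure D1:**
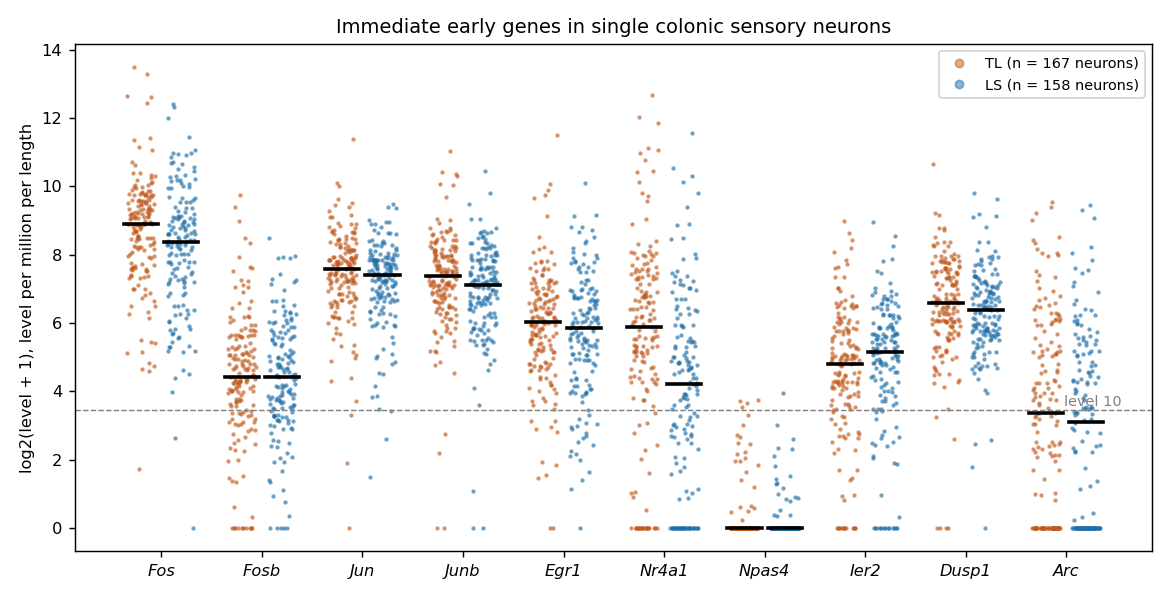
Level of each gene in every neuron, as log2(level + 1) on the vertical axis, with 167 TL neurons in orange and 158 LS neurons in blue, horizontal bars at the medians and a dashed line at a level of 10. Fos is highest and Npas4 lies at 0 in 279 of 325 neurons, and the TL bar of Nr4a1 (58.5) is well above its LS bar (17.7).

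The genes were expressed together in most neurons. Of the 10 genes, the median neuron expressed 8, 109 neurons expressed 9 and 2 neurons expressed all. No neuron expressed none, and 2 expressed a single one. The summed level of the genes had a median of 1044 and ran from 37.1 to 26819, and Fos made up 38.9% of it in the median neuron. The neuron with the highest Fos (11508), a TL neuron of plate 3 with Gfra3, was also the highest for Fosb (857), Jun (2687), Egr1 (2925) and Nr4a1 (6503). Its satellite glia markers without S100b summed to 44237, above 96.6% of neurons, and its sensory neuron markers to 5743, above 3.08%. The next in Fos, a TL neuron of plate 5, had a glia sum of 71627 and neuron markers of 2223, the lowest of all. In the 7 neurons highest in Fos the glia sum lay above that of at least 95.7% of neurons. The ninth, an LS neuron of plate 2 with Fos at 2792 and the highest Npas4, had a glia sum of only 193. These neurons were kept in all comparisons, and the part of glial RNA in their levels was not tested.

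Between the spinal segments, 1 of the 9 genes tested was called, Nr4a1, which was higher in TL neurons. A gene was called where the LS minus TL difference of mean log2(level + 1), averaged over plates 2 to 6, was at least 1 in size with the same sign in all 5 plates. By this rule 1.51% of all genes tested were called higher in TL and 2.94% higher in LS. Npas4 was below the filter for testing. TL neurons had an Nr4a1 median of 58.5 and LS neurons one of 17.7, and 80.2% against 60.1% of neurons expressed it. In plates 2 to 6 its TL medians were 45.2, 89.6, 54.0, 66.3 and 61.3, and its LS medians were 14.0, 24.6, 12.5, 15.3 and 30.7. Every TL median lay above every LS median, although single neurons ran from 0 to 6503 in TL and from 0 to 3025 in LS. LS minus TL was -1.58 ± 0.75 on the log2 scale (SD over 5 plates, lowest -2.55, highest -0.60). The median difference of all genes tested was 0.13. On this scale the Nr4a1 difference lay mainly in neurons with Gfra3, as given with the neuron classes below.

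The Fos medians were 479.5 (TL) and 329 (LS). Its difference was -0.55 ± 0.54 (SD, 5 plates), with TL higher in 4 of 5 plates. Jun was higher in TL in all 5 plates but by little, at -0.25 ± 0.21 (SD, 5 plates), with medians of 188 and 169.6. Junb differed by -0.33, Egr1 by -0.18, Arc by -0.50, Dusp1 by -0.11 and Fosb by -0.09, each with plates of both signs, and Ier2 by 0.16 with LS higher in 3 of 5 plates. Over the 9 genes the median difference was -0.25.

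**Figure D2:**
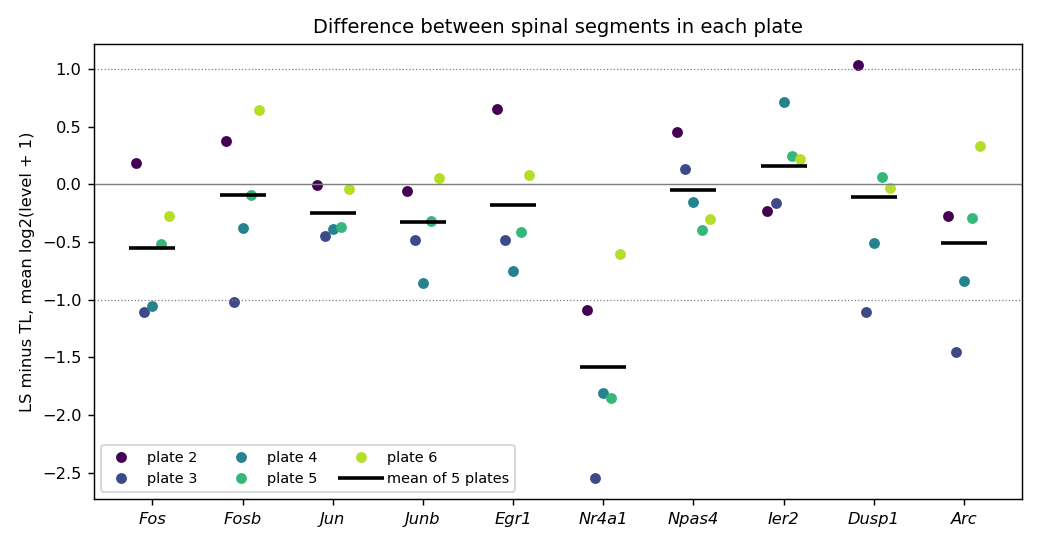
Difference LS minus TL of mean log2(level + 1) for each gene, with a point for each of plates 2 to 6 and a bar at their mean, and dotted lines at -1 and 1. All 5 points of Nr4a1 are below 0, between -2.55 and -0.60, while those of Fos, Fosb, Junb, Egr1, Ier2, Dusp1 and Arc lie on both sides of 0.

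The satellite glia markers moved with this difference. Their summed level without S100b had a median of 2000.3 in neurons of TL against 215 in those of LS, and Apoe had medians of 1707 and 102. Of the 9 tested markers, 4 were called higher in TL and none higher in LS. Among the 162 neurons below the median of the S100b-free sum, Nr4a1 had medians of 11.5 (64 TL neurons) and 5.79 (98 LS neurons). There LS minus TL was -0.55, LS was higher in 2 of 5 plates, and Nr4a1 was no longer called. In the other 163 neurons the medians were 118 (103 TL neurons) and 79.1 (60 LS neurons). With S100b in the sum, the neurons below its median gave -1.16, with TL higher in all 5 plates. By the ratio of mean levels in place of the mean of logs, the difference was -1.30 and was not called. Jun, the other gene with 1 sign in all plates, differed by 0.22 in the neurons below the median without S100b. How far glial RNA contributed to the segment difference of Nr4a1 was not tested.

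Over all neurons, Nr4a1 and Arc followed the glia markers most closely of the 10 genes. Spearman correlations were computed from ranks taken within each plate and segment, over 325 neurons that share cultures and library plates, and are given as descriptions. With the sum of all 10 glia markers, rho was 0.646 for Arc and 0.622 for Nr4a1, between 0.346 and 0.42 for Fos, Fosb, Ier2 and Egr1, 0.143 for Dusp1, 0.114 for Junb, 0.016 for Jun and -0.052 for Npas4. The values for Jun and Junb rested in part on S100b, with which they were at -0.378 and -0.305. With the sum of the other 9 markers, rho was 0.63 for Nr4a1, 0.622 for Arc, between 0.395 and 0.483 for Fos, Fosb, Ier2 and Egr1, 0.279 for Junb, 0.235 for Jun and 0.109 for Dusp1. The 82 neurons lowest in that S100b-free sum held 38 with Gfra3 and 31 with Piezo2 alone, and the 82 highest held 39 and 26. Arc was expressed in 12 of the lowest and in 67 of the highest, with medians of 0 and 66.5. Nr4a1 was expressed in 37 and 82 of them, with medians of 5.41 and 180. Both were thus low where these markers were low. Fos was expressed in 81 of the lowest 82 at a median of 270.1 and in all of the highest 82 at a median of 748. Jun was expressed in 78 of the lowest and 81 of the highest, with medians of 145 and 213. Junb and Dusp1 were expressed in 78 and 77 of the lowest 82. Depth differed little between the sets, with median reads of 3225808 and 3415888 and median genes of 13445 and 12961.

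**Figure D3:**
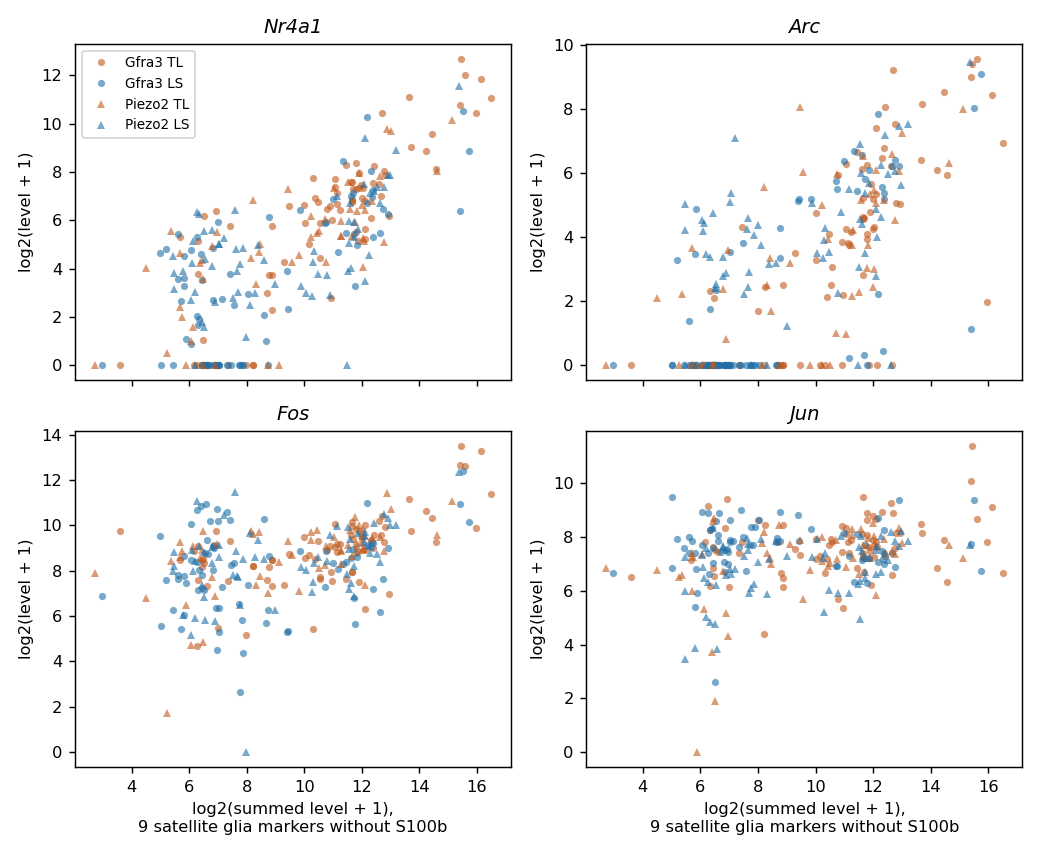
Level of Nr4a1, Arc, Fos and Jun in neurons with Gfra3 (circles) or Piezo2 (triangles) of TL (orange) and LS (blue), as log2(level + 1), against the summed level of 9 satellite glia markers without S100b on the same scale. Nr4a1 and Arc rise to the right, while Jun is at 10 or more in 157 of 158 Gfra3 and 118 of 120 Piezo2 neurons. Below the median of that sum, Nr4a1 has medians of 2.18 in Gfra3 and 16.1 in Piezo2 neurons, and Arc has medians of 0 and 4.69. Below and above the median of that sum, Jun has medians of 209.6 and 199 in Gfra3 neurons and of 113 and 177 in Piezo2 neurons.

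Neurons were then compared by 2 genes of known sensory classes: Gfra3, the artemin receptor of many peptidergic nociceptors, and Piezo2, the mechanically gated channel of touch and stretch receptors. With a level of 10 as the threshold, 158 neurons had Gfra3 alone, 120 Piezo2 alone, 25 both and 22 neither. None of the 9 genes tested was called between Gfra3 and Piezo2 neurons, at a background of 4.26% of genes called higher in Gfra3 and 5.2% higher in Piezo2 neurons. The rule was that of the segments, with the difference taken within each plate and segment. These classes were cells of the same 2 samples.

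Below the call, 2 AP-1 genes and the feedback phosphatase kept 1 sign in all plates. So did Npas4, at -0.28, which was below the filter for testing. The share of all genes tested that kept 1 sign was not computed. Jun had a median of 207 in Gfra3 and 149.9 in Piezo2 neurons, and Gfra3 minus Piezo2 was 0.78 ± 0.31 (SD, 5 plates). Junb had medians of 179 and 115 and a difference of 0.77 ± 0.36 (SD, 5 plates). Dusp1 had medians of 66.0 and 115 and a difference of -0.56 ± 0.20 (SD, 5 plates). All 3 were past a threshold of 0.5 in place of 1. Jun and Junb were higher in Gfra3 neurons in both segments, by 0.71 and 0.71 in TL and by 0.85 and 0.83 in LS, although Jun in TL and Junb in LS were so in 4 of 5 plates (lowest -0.19 and -0.01). Dusp1 was lower in both segments in all 5 plates, at -0.52 and -0.60. In the 162 neurons below the median of the S100b-free glia sum, Jun and Junb differed by 1.07 and 1.04 and were called. The share of all genes called in that set, or at a threshold of 0.5, was not computed. Fos, with medians of 394 and 449 and a difference of -0.13, and Fosb, at -0.28, had plates of both signs. So did Egr1, at 0.34 with Gfra3 higher in 4 of 5 plates.

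The mean Gfra3 minus Piezo2 difference was above 0 in TL and below 0 in LS for Fos, Fosb, Egr1, Nr4a1, Arc and Ier2. The share of all genes tested with these signs was not computed, so the values are given gene by gene. Fos was at 0.31 in TL (above 0 in 4 of 5 plates) and -0.57 in LS (1 of 5). Fosb was at 0.23 and -0.79, above 0 in 3 of 5 plates of each. Egr1 was at 0.81 (all 5 TL plates) and -0.14 (2 of 5 LS plates). For Nr4a1, Gfra3 minus Piezo2 was 1.42 in TL, above 0 in 4 of 5 plates, and -1.71 in LS, below 0 in all 5. Among neurons with Gfra3 its median was 97.2 for TL and 9.62 for LS, and among those with Piezo2 it was 38.0 and 21.8. Its mean log2(level + 1) over all plates was 5.93 (TL) and 3.41 (LS) with Gfra3, but 4.84 and 4.75 with Piezo2. In the fewer neurons with both genes it was 5.96 and 2.52, and in those with neither 4.69 and 4.95. On that scale the segment difference of Nr4a1 was thus found in neurons with Gfra3 and hardly in those with Piezo2. For Arc the differences were 0.76 in TL and -2.01 in LS, where all 5 plates were below 0. Its median was 14.0 among 82 TL neurons with Gfra3 and 0 among 76 such LS neurons, and 7.05 and 15.7 among those with Piezo2. For Ier2 they were 0.33 and -1.56, again with all 5 LS plates below 0. Its medians were 20.5 (TL) and 25.6 (LS) with Gfra3 and 22.2 and 49.8 with Piezo2. The difference between segments was not tested. The S100b-free glia sum had medians of 2271 in TL and 164 in LS neurons with Gfra3, and of 1195 and 391 in those with Piezo2. The medians of Nr4a1 had the same order over these 4 sets, and those of Arc and Ier2 did not.

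Within a class and a segment, Nr4a1 still followed the sum of all 10 glia markers, with rho of 0.814 in 82 TL and 0.446 in 76 LS neurons with Gfra3, and of 0.347 in 52 TL and 0.571 in 65 LS neurons with Piezo2. With the S100b-free sum these were 0.803, 0.428, 0.652 and 0.49. In neurons with Gfra3 below the median of the S100b-free sum, Nr4a1 had medians of 2.45 in 26 TL and 2.18 in 53 LS neurons. Above it the medians were 158 in 56 TL and 88.6 in 23 LS neurons. In neurons with Piezo2 below that median it had medians of 15.2 in 27 TL and 16.8 in 34 LS neurons. In all 162 neurons below it, Gfra3 minus Piezo2 was -1.39 for Nr4a1 and -1.41 for Arc, and both were called higher in Piezo2 neurons. The share of all genes called in that set was not computed. In all neurons the differences of Nr4a1 and Arc were -0.14 and -0.63, with plates of both signs.

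The few neurons of the remaining classes were described apart. The 25 neurons with both genes had a Fos median of 479.5 and a Jun median of 219.9, each somewhat above those of Gfra3 and of Piezo2 neurons. The 22 neurons with neither had a Fos median of 138, a Jun median of 70.8 and a Dusp1 median of 43.2, the lowest of the 4 classes for each. Their medians of all 10 glia markers, at 5242 in TL and 3203 in LS, were among the highest. S100b alone had medians of 1777 (TL) and 1545 (LS) in them, and without it the sums of the 10 LS neurons ran from 56.6 to 59692. These 22 neurons also had fewer genes with a read, at a median of 9459 against 13641 to 14174 in the other classes, and a lower mitochondrial share, at 0.653% against 1.83 to 2.52%. The part of RNA quality in their levels was not tested. Npas4 was expressed in 4 of 120 Piezo2 neurons and in 0 of 158 Gfra3 neurons, which allows a share of up to 2.31% (exact binomial interval).

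**Figure D4:**
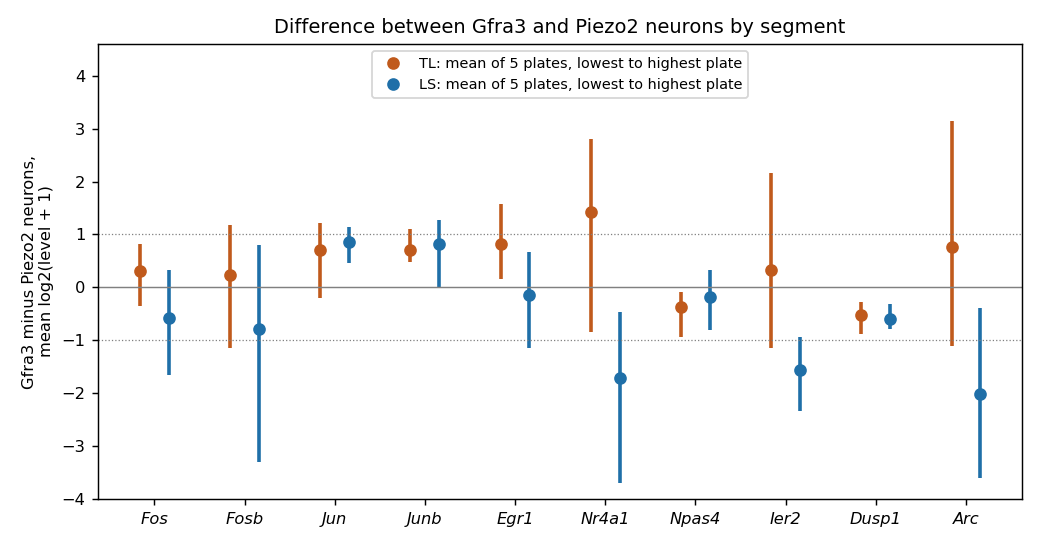
Difference of mean log2(level + 1) between Gfra3 and Piezo2 neurons in TL (orange) and LS (blue), with points at the mean of 5 plates and lines from the lowest to the highest plate. Jun and Junb have means above 0 and Dusp1 below 0 in both segments, while Nr4a1 stands at 1.42 in TL and -1.71 in LS.

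The spread between plates was compared with that within them. In plates 2 to 6, the share of the sum of squares of log2(level + 1) within segments that lay between plates had a median of 3.76% over the 9 genes, against 3.46% over all genes tested. The median over the 9 genes was 6.26% without the 82 neurons highest in glia markers and 9.29% in neurons below the median of the S100b-free sum. Egr1 had the largest share at 14.1%, above 94.6% of genes tested, with plate medians of 99.8, 92.4, 34.6, 51.8 and 60.2. Jun followed with 7.18% and Dusp1 with 7.16%, and the other 6 genes had between 1.58% and 4.14%. Plate 1, with 5 neurons, had a Fos median of 213 and an Egr1 median of 20.3. Plates 2 and 3 were also the most deeply sequenced of the 5, with median reads of 5774890 and 6439980 against 2561650 to 3089600, and the part of depth in the plate values of Egr1 was not tested.

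Across neurons the genes varied together. Of the 45 pairs, 29 (64.4%) had a within-stratum rho of 0.3 or more, against 3.62% of all pairs of genes tested, and the median was 0.356 against 0.06. The highest values joined Fos and Egr1 (0.702), Fos and Fosb (0.664), Nr4a1 and Arc (0.663), Fosb and Egr1 (0.653), Junb and Egr1 (0.597) and Jun and Junb (0.578). The Fos and Egr1 value was above 0 in all 10 strata of plates 2 to 6, from 0.317 to 0.879. Jun was at 0.187 with Nr4a1, 0.201 with Arc and 0.19 with Ier2, the lowest of the pairs without Npas4. Npas4 reached no more than 0.172, with Dusp1, and at its level few neurons could show a relation. Of its 9 partners, Fosb reached 0.3 with 8 (background 3.29% of tested genes), Egr1 with 8 (2.77%), Fos with 7 (2.02%), Nr4a1 with 7 (3.21%) and Dusp1 with 7 (0.846%). Junb reached it with 6 (2.22%), Arc with 6 (3.2%), Ier2 with 5 (2.39%) and Jun with 4, while 7.59% of tested genes did so with Jun. Reads per neuron were at rho 0.093 and genes per neuron at 0.102 with the mean rank of the 10 genes.

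The co-variation was smaller with the glia markers removed by rank, and in neurons low in their sum. With the rank of the S100b-free glia sum removed, the median of the pairs was 0.288 and 21 of 45 were at 0.3 or more. In neurons below the median of all 10 glia markers it was 0.193, with 11 pairs at 0.3 or more. That sum holds S100b, so this set also differed in neuron class. It kept 55 of 76 LS neurons with Gfra3 but 30 of 65 with Piezo2, and 37 of 82 and 26 of 55 in TL. Satellite glia themselves can express these genes, and how much of the co-variation comes from glial RNA was not tested.

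**Figure D5:**
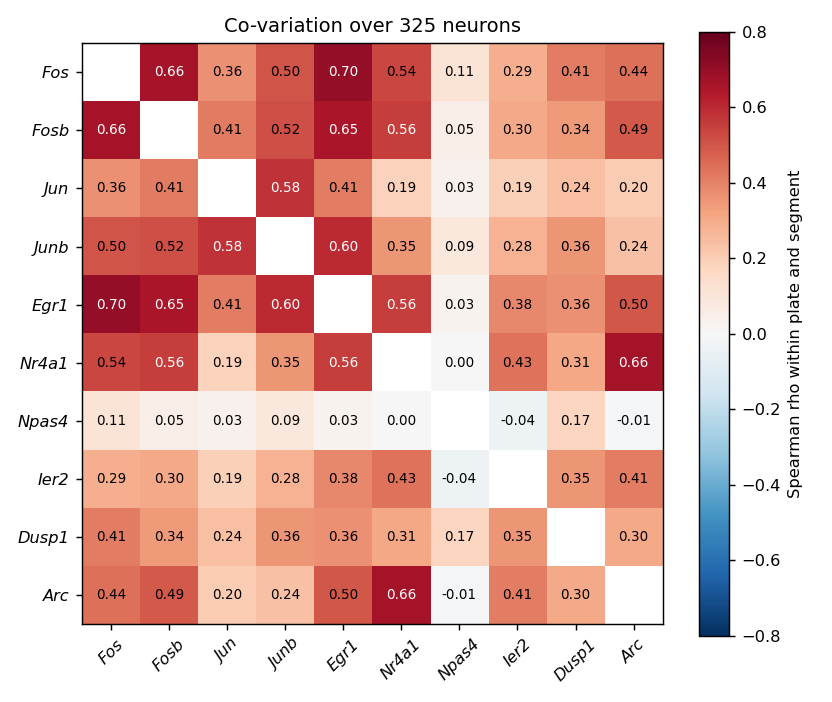
Spearman rho between each pair of the 10 genes over 325 neurons, with ranks taken within plate and segment, on a scale from -0.8 (blue) to 0.8 (red). Fos, Fosb, Egr1 and Junb form the reddest block (0.50 to 0.70), Nr4a1 pairs most with Arc (0.66), and the row of Npas4 is near 0.

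The genes outside the list whose pattern was most like that of the 10 were named by their mean rho over 325 neurons. They were Ccnl1, a cyclin that acts with the splicing machinery (0.424), Ppp1r15a, the stress-induced phosphatase subunit GADD34 (0.417), Zfp36 (0.399) and Zfp36l1 (0.394), which bind AU-rich elements and speed the decay of early response mRNAs, and Lmna, a nuclear lamin (0.387). By member, Ccnl1 was among the 3 most alike for Fos (0.527), Fosb (0.531), Jun (0.52), Junb (0.569) and Egr1 (0.578). For Fos the others were Irf1 (0.538) and Nfkbia (0.524), both of the interferon and NF-kappaB response, and for Egr1 they were Egr2 (0.571) and Sertad1 (0.547). Ier2 was most like Ppp1r15a (0.525), Ifrd1 (0.48) and Gadd45b (0.473). Dusp1 was most like another MAP kinase phosphatase, Dusp6 (0.441), then Cars (0.392) and Tob2 (0.388). Jun was joined by Rsrp1 (0.527) and Srrm2 (0.51), genes of RNA splicing, Junb by Klf6 (0.523) and Btg1 (0.512), and Fosb by Sertad1 (0.536) and Ppp1r15a (0.531). Nr4a1 and Arc stood apart from these: Nr4a1 was most like Zfp36l1 (0.738) and was at 0.698 with Acsbg1, and Arc most like Acsbg1 (0.682), Ednrb (0.682) and Phgdh (0.668). Acsbg1, Ednrb and Phgdh are known from glia. Npas4 reached only 0.264, with Hdlbp, then 0.249 with Map1b and 0.244 with Mycn.

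Other early response transcription factors were described from a list of 21, of which 17 were tested. Between the segments 1 was called, Klf4, higher in TL and just past the threshold. Between the classes Id2, an inhibitor of basic helix-loop-helix factors, was called higher in Gfra3 neurons (1.47), and Fosl1, the FOS family member FRA1 (-1.65), and Nr4a2, the relative of Nr4a1 (-1.66), higher in Piezo2 neurons. Over all genes tested, the shares called were 1.51% (TL) and 2.94% (LS) between segments, and 4.26% (Gfra3) and 5.2% (Piezo2) between classes. The most abundant were Atf3, a stress and injury factor with a median of 235, Klf6 with 135, Id2 with 109, Myc with 32.4 and the AP-1 subunit Jund with 16.9. The other families differed in level from the members: the median of Fosl1 was 10.9, Fosl2 4.65 and Egr2 1.14, and those of Egr3 and Egr4 were 0. Of the 17 genes, 8 had a mean rho of 0.3 or more to the 10 members, among them Klf6 (0.375) and Egr2 (0.367), at a background of 1.22% of tested genes outside the 10. Of the 9 satellite glia markers tested, 5 did so too, with a median of 0.316 against 0.292 for the 17 genes.

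Early response regulators and effectors formed a second list of 28 genes, 22 of them tested. Dusp6 (-1.55) and Ccn1, a secreted matrix protein (-2.54), were called higher in TL. The Ccn1 medians were 81.3 (TL) and 3.98 (LS), with single neurons up to 12274. Ier3, an early response gene of cell survival (-2.64), Gadd45b (-1.49), Dusp6 (-1.45) and the neurotrophin Bdnf (-1.22) were called higher in Piezo2 neurons. Gadd45g (1.10), the G protein regulator Rgs2 (1.11) and the pentraxin Nptx2 (1.09) were called higher in Gfra3 neurons. The background was again 1.51% (TL) and 2.94% (LS) between segments, and 4.26% (Gfra3) and 5.2% (Piezo2) between classes. The highest medians were those of Gadd45g (269), Ppp1r15a (91.9), Nptx2 (66.2), Rheb (57.6) and Gadd45b (55.8), and the median of Ptgs2, the inducible cyclooxygenase, was 0. Of the 22 genes, 6 had a mean rho of 0.3 or more to the members, at a background of 1.22% of tested genes outside the 10.

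The factors that act upstream of the early genes were low, and 7 of the 15 were below the filter for testing. None of the other 8 was called in either comparison, a count near that background (1.51% and 2.94% between segments, 4.26% and 5.2% between classes), and none had a mean rho of 0.3 or more to the members. The highest medians were those of Mef2a (25.3), Crtc1 (15.3), Crtc2 (14.9), Mef2d (12.6) and Crebbp (9.25), while Srf had a median of 1.56 and Creb1 of 3.17. None of the 10 tested of 11 heat shock genes was called either, and their most abundant members were Hsp90ab1 (2841), Hspa8 (1768), Hsp90aa1 (1027), Hspb1 (1024) and Hspd1 (165). The inducible Hspa1a had a median of 4.58 and was expressed in 28.6% of neurons, and its mean rho to the members was 0.301. Dnajb1, a co-chaperone, was the other heat shock gene past 0.3, at 0.346. Of 9 axon injury genes, 7 were tested: Gadd45a was called higher in LS (1.16), and Gal (7.29), Gap43 (1.34) and Ecel1 (1.26) higher in Gfra3 neurons. The medians of Gap43 were nearly equal, at 1200.1 in Gfra3 and 1212 in Piezo2 neurons, and its difference lay in low values, since all Gfra3 but only 90.0% of Piezo2 neurons expressed it. Gal, a neuropeptide, had medians of 4858 and 24.8. The summed level of the 9 genes was at rho 0.304 with Jun and 0.232 with Junb, and between -0.196 and 0.049 with the other 8 members. Without Gal these were 0.076 for Jun and 0.139 for Junb, and between -0.052 and 0.172 for the other 8. Arc (0.172) and Egr1 (0.160) were then above both. Within the classes, with Gal, Jun was at -0.044 in 158 Gfra3 and 0.257 in 117 Piezo2 neurons. Arc was at -0.090 and 0.294 in the same sets, the latter the highest of the 10 genes in Piezo2 neurons.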

How the data were processed

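Single neurons were sequenced by a modified Smart-seq2 protocol with paired-end reads in 6 library plates. Per the labels, the submitters' processing notes name bcl2fastq 2.15.0.4, STAR 2.4.1, featureCounts 1.4.4 and genome build GRCm38.p3. The authors removed low-quality cells before deposit, and the deposited table holds log2 values for 45513 genes in 325 neurons. Before its clustering, the paper also left out cells that it took as contaminated by satellite glia. Those cells were not told apart here, and all 325 neurons were used. The value was taken as log2(x + 1) with x per transcript length, and x was rescaled to 1000000 per neuron. The linear values did not sum to a common total before rescaling (218865 to 11159067). In reading the table back into reads, 65.0% of values above 0 were whole within 1e-06 with GENCODE M21 gene lengths, against 0.0773% with lengths drawn at random, and the lengths behind 8712 genes were found from the values. All 10 gene IDs matched by symbol.

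Genes at 10 or more in at least 10% of neurons were tested (10283, 9 of the 10). Differences were taken on log2(level + 1), a pseudocount of 1, within plates, needing at least 3 neurons of each class and stratum, and called at 1 with the same sign in every plate. This scale understates changes of low genes. Correlations used ranks within strata of plate and segment with at least 5 neurons. The segment difference, its call and the rank correlations were tested on simulated data, and the other steps were not. Python 3.11.15, numpy 2.4.6, pandas 2.3.3, SciPy 1.17.1 and matplotlib 3.10.9 were used.

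Alternatives were other scales, totals, pseudocounts, thresholds and neuron filters, and leaving out each plate. Those on glia markers below their median or removed by rank, with or without S100b, were added after seeing the data, as were the sets of 82 neurons lowest and highest in the S100b-free sum and the axon injury sum without Gal or within classes. All 10 members were named. From the lists of other early response, upstream and heat shock genes, those called and the 5 with the highest median were named, and of genes alike in pattern the 5 highest over all members and the 3 highest for each, of which 1 is not reported here. Others in the text (such as Fosl2, Egr2 to Egr4, Ptgs2, Srf, Creb1, Hspa1a, Dnajb1 and the axon injury genes) were chosen after their values were seen. The members and lists were chosen with earlier results of these data known.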

Additional observations from a re-analysis of the deposited data

How the results depend on the processing

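Over leaving out each plate in turn, the median share of variance between plates ran from 2.96% to 4.6%. It was 5.6% on the deposited values without rescaling, 5.53% without neurons past 3 median absolute deviations in reads, genes or mitochondrial share, 6.26% without the 82 neurons highest in glia markers, 9.23% in neurons below the median of the glia markers and 9.29% below it without S100b. Fewer neurons per plate entered the latter fits, and the cause was not tested. The count of genes called between segments was 0 by the ratio of mean levels and 0 in neurons below the median of the glia markers without S100b, and 1 (Nr4a1) in the remaining alternatives run. The count called between Gfra3 and Piezo2 neurons was 3 at a threshold of 0.5, 2 (Arc and Nr4a1) in neurons below the median of the glia markers and 4 (Jun, Junb, Arc and Nr4a1) without S100b. For none of these alternatives was the share of all genes called computed. The median correlation of the pairs moved by no more than 1 SD in every alternative run. That SD is of the median correlation in each of the 10 plate and segment strata, and is a wide measure. In neurons below the median of all 10 glia markers, S100b included, the median correlation fell from 0.356 to 0.193. Of the single-gene differences, 9 of 160 between segments and 5 of 180 between classes moved by more than the SD over plates. The 1 called difference, Nr4a1 between segments, did not change sign. Uncalled differences did: in neurons below the median of all 10 glia markers, LS minus TL went from -0.25 to 0.13 for Jun and from -0.50 to 0.28 for Arc. Of 160 shares of neurons, 43 moved past the half-width of their interval, most under another threshold. Arc fell from 47.1% to 22.2% of neurons in those below the glia median. No paired analysis was possible because neurons are numbered only within a segment and no animal is named. With no replicate animals, the spread over plates measures these libraries alone.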
